A study of Arabidopsis thaliana with 34 samples.

Results

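The data described here are the transcript levels of leaves of the Arabidopsis thaliana accession Rschew (Rsch) after 1 d at -3 °C, set against cold acclimated leaves of the same accession. They come from 6 of the 34 ATH1 arrays of a study that followed sub-zero acclimation over time in the accessions Columbia-0 (Col), Rsch and Tenela (Te). The members were chosen by array title: 3 arrays of Rsch after 1 d and 3 arrays of cold acclimated Rsch, described as independent biological replicates. For each array, RNA of 3 leaves, taken from 3 plants, was pooled. All plants were naturally occurring accessions grown for 42 days at 20 °C by day and 18 °C by night with a day length of 16 h, and then cold acclimated for 14 days at 4 °C in light of 90 µmol m-2 s-1. The leaves at 1 d had then been detached and kept at -3 °C in 200 µl of water in darkness, where they stayed supercooled without ice. Leaves of the cold acclimated group were taken from whole plants, so each change belongs to detachment, darkness and temperature together. Rsch leaves after 8 h and after 3 d at -3 °C, and Col and Te leaves after 1 d at -3 °C and when cold acclimated, with 3 arrays each, served for comparison. The probes of the array follow the Columbia-0 sequence, which limits how well Rsch transcripts are read.

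Cold acclimation is the gain of freezing tolerance that many plants make in cool, non-freezing weather, through changes in membranes, sugars, protective proteins and cell walls. Sub-zero acclimation is a further gain after a stay just below freezing. The plant wall is a network of cellulose and xyloglucan in a pectin gel. Xyloglucan endotransglucosylase/hydrolases (XTH) cut and rejoin xyloglucan chains, expansins loosen the network, and pectin methylesterases alter the gel. Receptor kinases at the plasma membrane watch over the wall and over microbial molecules, and pass their signals through calcium sensors, protein kinases and WRKY transcription factors.

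Mesophyll markers were bright, while those of guard cells and of other organs had lower levels. The 7 mesophyll markers lay between 9.45 and 12.24 log2 at 1 d and between 10.32 and 12.72 when cold acclimated, none of them called, while the 3 guard cell, 3 root, 3 seed and 7 flower and pollen markers had means from 2.59 to 6.39 at 1 d and from 2.52 to 6.65 when cold acclimated. The medians of the arrays were 6.03 to 6.08 at 1 d and 6.13 to 6.17 when cold acclimated. The actin 3' minus 5' signal, a measure of RNA quality, was 2.79 to 3.20 log2 at 1 d and 3.00 to 3.49 when cold acclimated. It was lower at 1 d within each replicate number, and its part in the results was not tested. Replicate 1 of both groups had a lower level of the bioC hybridization control (7.30 at 1 d and 7.10 when cold acclimated) than the other 4 arrays. Cold acclimated replicate 3 held the highest of the 3 cold acclimated values for 44.7% of the probe sets called higher at 1 d, against 25.6% of all tested probe sets. Cold acclimated replicate 1 held the highest for 47.9% of those called lower, against 36.4% of all tested. Their part in the results was tested only by leaving each out. As leaves are a mixture of cells, a change in the number of cells of a type and a change in RNA per cell cannot be told apart.

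After 1 d at -3 °C many transcripts of Rsch leaves had changed in both directions, and the rises were larger than the falls. Of 22746 probe sets, 1406 were called (6.18%) in limma's test with a Benjamini-Hochberg adjusted p under 0.05, 725 higher (3.19%) and 681 lower (2.99%). Among the called, 505 were at least 2-fold higher (2.22% of all) and 244 at least 2-fold lower (1.07%). The changes of all probe sets had a median of -0.01 log2 and ran from -3.01 to 5.09. The 3 arrays at 1 d did not overlap the 3 cold acclimated arrays in 12.7% of all probe sets on the higher side and in 14.7% on the lower side, and in 1389 of the 1406 called. Pairing arrays by replicate number gave 2269 calls (1054 higher and 1215 lower). Centring every array on its median gave 919 higher and 468 lower. Leaving out 1 array gave 670 to 1071 calls, with 670 without Rsch 1 d replicate 3, 835 without Rsch 1 d replicate 2 and 773 without cold acclimated replicate 1. The difference between the groups within a replicate number correlated across probe sets with Pearson's r of 0.77 for numbers 1 and 2, 0.65 for 1 and 3, and 0.67 for 2 and 3, where probe sets are not independent.

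**Figure D1:**
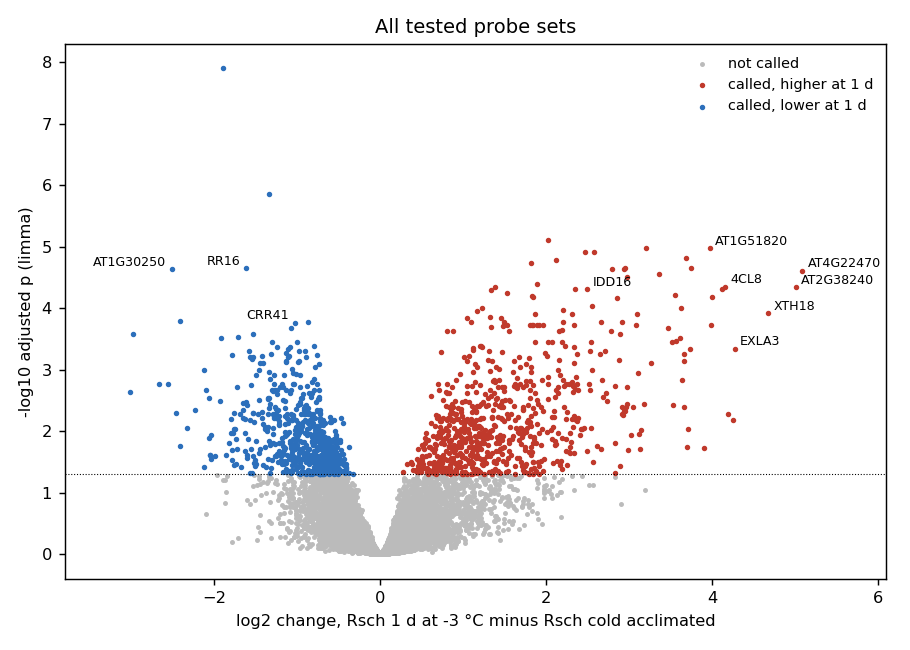
Each point is 1 of 22746 probe sets, with the log2 change of Rsch leaves after 1 d at -3 °C against cold acclimated Rsch leaves on the x axis and the -log10 of limma's adjusted p on the y axis, where the dotted line marks an adjusted p of 0.05. The 725 probe sets called higher reach 5.09 log2 and the 681 called lower reach -3.01 log2.

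Many of the highest rises among probe sets with 1 gene belonged to loci that the annotation used here gives only by code. AT4G22470 read 11.02, 11.64 and 11.95 log2 in the leaves at 1 d, against 5.70, 6.30 and 7.34 in cold acclimated leaves, a change of 5.09 ± 0.63 log2 (SE), or 34-fold (adjusted p = 2.48e-05). AT2G38240 read 11.14, 10.79 and 11.36 log2 in the leaves at 1 d, against 5.20, 6.48 and 6.58 in cold acclimated leaves, a change of 5.01 ± 0.65 (adjusted p = 4.54e-05). Both lay near the array medians in cold acclimated leaves and far above them on every array at 1 d, with no overlap. AT5G62360 reached 12.82, 12.66 and 12.96 at 1 d, against 10.57, 7.93 and 7.98 when cold acclimated, so cold acclimated replicate 1 was already high, and the change was 3.99 ± 0.59. Further loci of this group with changes of 3.26 to 3.97 log2 and no overlap were AT1G51820, AT2G44800, AT2G34930, AT3G15440, AT2G44370, AT5G05600, AT3G59350 and AT5G54300. These loci were called under every alternative processing run. The deepest falls were smaller. AT1G30250 read 5.26, 5.52 and 5.63 log2 in the leaves at 1 d, against 7.91, 7.41 and 8.62 in cold acclimated leaves, a change of -2.51 ± 0.31 (adjusted p = 2.33e-05). AT1G30260, the gene beside it on the chromosome, changed by -1.91 ± 0.30, with 6.90, 6.55 and 6.22 at 1 d, against 8.54, 8.19 and 8.68 when cold acclimated. Other loci that fell were AT4G27657 (-2.32), AT1G15260 (-2.23), AT1G21520 (-2.12), AT2G03750 (-2.09), AT5G03230 (-2.05), AT1G24140 (-2.04), AT1G13470 (-2.04), AT5G47610 (-1.85), AT5G59350 (-1.80) and AT3G13672 (-1.78). AT4G27657 lost its call without cold acclimated replicate 3 (adjusted p = 0.0749). AT5G03230 lost its call without Rsch 1 d replicates 1 or 2 or cold acclimated replicates 1 or 3 (adjusted p between 0.0781 and 0.109). AT1G24140 lost its call without Rsch 1 d replicates 1 or 3 or cold acclimated replicate 3 (adjusted p between 0.0588 and 0.197). AT1G13470 lost its call without Rsch 1 d replicates 1 or 3 or cold acclimated replicate 2 (adjusted p between 0.0979 and 0.147). AT5G47610 lost its call without Rsch 1 d replicates 2 or 3 or cold acclimated replicates 1 or 3 (adjusted p between 0.0903 and 0.11). AT5G59350 lost its call without Rsch 1 d replicate 3 or cold acclimated replicate 1 (adjusted p between 0.0746 and 0.0952).

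Genes that build and remodel the cell wall held the largest rises among the genes with a symbol, XTH18 and EXLA3. Of 10 XTH genes measured, 4 were called higher and none lower, beside 3.19% of all probe sets called higher, and their median change was 0.54 against -0.01 for all probe sets. The counts and medians of the other lists are read against the same background, 6.18% called in either direction and a median of -0.01. XTH18 (AT4G30280) read 10.06, 8.75 and 10.32 log2 in the leaves at 1 d, against 4.19, 4.99 and 5.92 in cold acclimated leaves, a change of 4.68 ± 0.66 or 25.6-fold (adjusted p = 0.00012). XTH19, its neighbour on the chromosome, read 8.02, 7.21 and 8.55 at 1 d, against 4.98, 5.33 and 5.91 when cold acclimated, a change of 2.52 ± 0.49 (adjusted p = 0.00212). The level of XTH18 was low on all cold acclimated arrays and high on all arrays at 1 d, and neither gene's groups overlapped. XTH33 read 8.92, 7.34 and 8.49 at 1 d, against 4.65, 5.37 and 6.22 when cold acclimated, a change of 2.84 ± 0.86 (adjusted p = 0.0469). XTH20 was dim in both groups, with 5.27, 4.41 and 5.60 at 1 d, against 3.54, 3.65 and 3.71 when cold acclimated, a change of 1.46 ± 0.32 (adjusted p = 0.00599). The other 6 XTH genes did not pass the test and ranged from -0.97 for XTH32 to 0.69 for XTH29. XTH18, XTH19 and XTH20 are related in sequence, and their probe sets may read each other's transcripts. XTH33 lost its call without Rsch 1 d replicates 1, 2 or 3 or cold acclimated replicates 1, 2 or 3 (adjusted p between 0.0533 and 0.203). XTH20 lost its call without Rsch 1 d replicate 3 (adjusted p = 0.0572).

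Among 18 expansins and expansin-like genes, 2 were called higher and none lower, with a median of 0.04 (11.1% called), and both belonged to the expansin-like A group. EXLA3 read 10.34, 10.32 and 10.05 log2 in the leaves at 1 d, against 5.13, 5.53 and 7.23 in cold acclimated leaves, a change of 4.27 ± 0.70 or 19.3-fold (adjusted p = 0.000458). The 3 arrays at 1 d lay close together, while cold acclimated replicate 3 stood above the other cold acclimated arrays. EXLA2 changed by 1.39 ± 0.39 (adjusted p = 0.0328), with 6.48, 5.46 and 6.68 at 1 d, against 4.74, 4.65 and 5.05 when cold acclimated. The third gene of that group, EXLA1, had a change of 1.13 ± 0.48 that did not pass (adjusted p = 0.199), and EXPA4 had the lowest value, -1.15 (adjusted p = 0.17). EXLA2 lost its call without Rsch 1 d replicates 1 or 3 or cold acclimated replicates 1, 2 or 3 (adjusted p between 0.0526 and 0.187).

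Wall polysaccharide genes gave a few further rises. Of 12 cellulose synthase-like and xylan genes, 2 were called higher and none lower (median 0.16), namely IRX15-L, which is needed for xylan in secondary walls, and CSLD2, a cellulose synthase-like gene known from root hairs. IRX15-L read 8.31, 7.47 and 7.49 log2 in the leaves at 1 d, against 4.98, 5.06 and 5.19 in cold acclimated leaves, a change of 2.68 ± 0.49 (adjusted p = 0.00148). CSLD2 read 9.91, 10.25 and 10.29 at 1 d, against 8.07, 8.49 and 8.55 when cold acclimated, a change of 1.78 ± 0.37 (adjusted p = 0.00373). In both genes the lowest array at 1 d lay more than 1 log2 unit above the highest cold acclimated array. Of 7 pectin genes, 2 were called higher and none lower (median 0.07). AT5G62360, a pectin methylesterase inhibitor-like gene given only by code here, was not on that list and rose by 3.99 ± 0.59. GAUT15, of the galacturonosyltransferase family that makes pectin, read 8.57, 8.42 and 8.54 at 1 d, against 7.32, 6.81 and 7.07 when cold acclimated, a change of 1.44 ± 0.26 (adjusted p = 0.00144). The pectin methylesterase ATPMEPCRB had a change of 2.29 ± 0.61 (adjusted p = 0.0221), but its groups overlapped, with 7.22, 6.44 and 8.01 at 1 d, against 4.3, 3.95 and 6.54 when cold acclimated, and it lost its call without Rsch 1 d replicates 1 or 3 or cold acclimated replicates 1 or 2 (adjusted p between 0.0565 and 0.147). Of 22 TBL genes, whose products acetylate wall polysaccharides, TBL37 (1.17) and TBL18 (0.51) were called higher and TBL35 (-0.60) lower, with a median of 0.03 (13.6% called). COB, a membrane-anchored protein that guides cellulose deposition, rose by 0.73 ± 0.21 (adjusted p = 0.0427). TBL37 lost its call without Rsch 1 d replicates 1, 2 or 3 or cold acclimated replicates 1, 2 or 3 (adjusted p between 0.0629 and 0.14). TBL18 lost its call without Rsch 1 d replicate 3 or cold acclimated replicates 2 or 3 (adjusted p between 0.0656 and 0.182). TBL35 lost its call without Rsch 1 d replicates 1 or 3 or cold acclimated replicates 2 or 3 (adjusted p between 0.0576 and 0.142). COB lost its call without Rsch 1 d replicates 1 or 3 or cold acclimated replicates 2 or 3 (adjusted p between 0.122 and 0.166). The 15 GH9 endoglucanases and 4 SKU5 genes held no call, with values from -0.42 to 0.31.

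**Figure D2:**
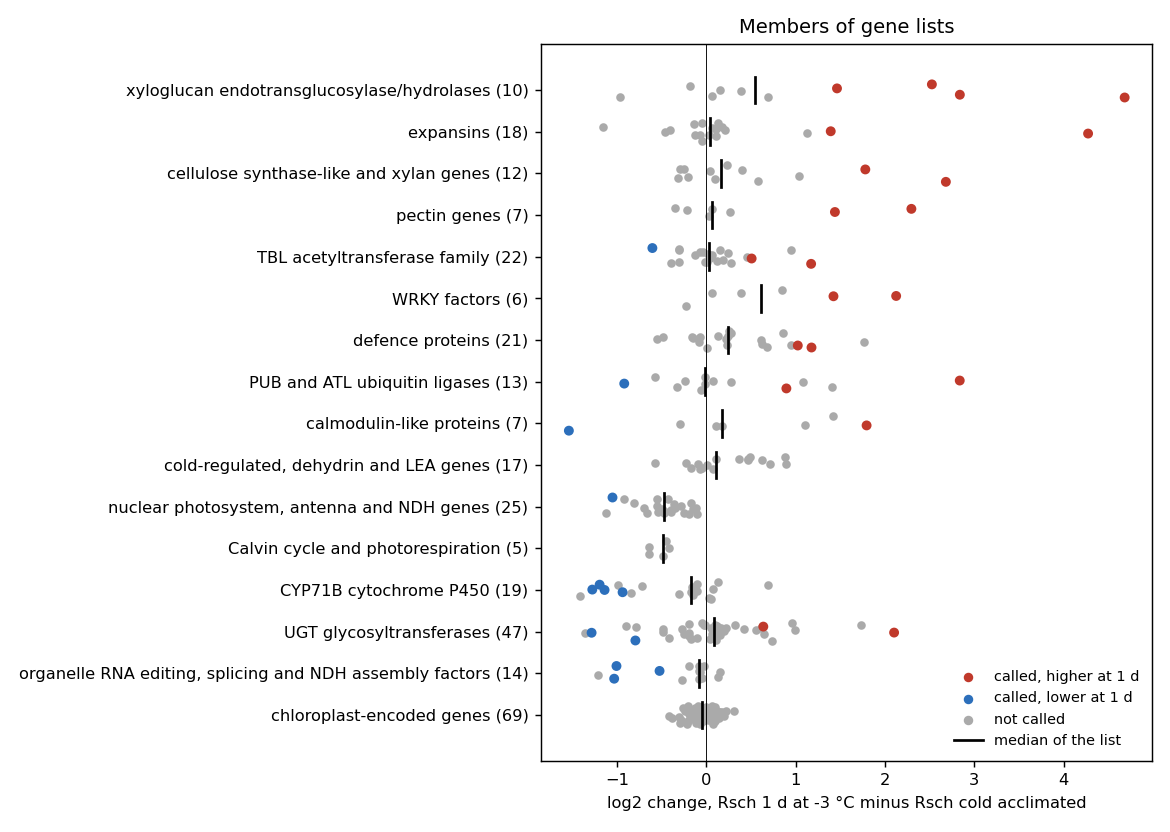
Each point is a gene of the list named at the left, with the number of measured members in brackets, and the x axis is the log2 change of Rsch leaves after 1 d at -3 °C against cold acclimated Rsch leaves. Red and blue points are called higher and lower, grey points are not called, and the black bar is the median of the list. The 25 photosystem, antenna and NDH genes all lie below 0 although 1 of them is called, and the 4 called XTH genes lie between 1.46 and 4.68.

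Single genes named for phenylpropanoid and lignin synthesis were called higher, with no list of the pathway counted. 4CL8, which its name places with the 4-coumarate-CoA ligases, read 9.79, 9.59 and 8.73 log2 in the leaves at 1 d, against 5.21, 4.92 and 5.51 in cold acclimated leaves, a change of 4.15 ± 0.54 or 17.8-fold (adjusted p = 4.43e-05), and was called under every alternative run. CCR2, a cinnamoyl-CoA reductase, which makes lignin precursors, read 6.41, 7.39 and 8.11 at 1 d, against 4.59, 4.80 and 5.30 when cold acclimated, a change of 2.41 ± 0.58 (adjusted p = 0.0115). HCT, the hydroxycinnamoyl transferase of the same pathway, changed by 0.81 ± 0.25 (adjusted p = 0.0478). CCR2 lost its call without Rsch 1 d replicate 3 or cold acclimated replicate 1 (adjusted p between 0.0581 and 0.0934). HCT lost its call without Rsch 1 d replicates 2 or 3 or cold acclimated replicates 1 or 3 (adjusted p between 0.163 and 0.232). These 3 genes were grouped after their values had been seen.

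Receptors, kinases and transcription factors of wall and microbe sensing were among the genes that rose, grouped here after their values had been seen. FER and SD1-29 were not on the lists counted in this paragraph. PSY1R, another receptor kinase, was called lower (-0.64). FER (FERONIA), a receptor kinase that binds RALF peptides, read 10.47, 10.72 and 10.58 log2 in the leaves at 1 d, against 9.54, 9.86 and 9.93 in cold acclimated leaves, a change of 0.81 ± 0.18 (adjusted p = 0.00654). RALFL22, a RALF-like peptide, had a change of 1.71 ± 0.49 (adjusted p = 0.0366) with 10.03, 9.22 and 10.26 at 1 d, against 7.46, 7.64 and 9.29 when cold acclimated, so that cold acclimated replicate 3 lay within the range of the arrays at 1 d. It was the only called gene of 11 RALF-like peptides (9.09%, median 0.09), and it lost its call without Rsch 1 d replicates 1 or 3 or cold acclimated replicates 1 or 2 (adjusted p between 0.107 and 0.208). SD1-29, an S-domain receptor kinase, read 10.04, 9.97 and 10.17 at 1 d, against 8.30, 8.49 and 8.01 when cold acclimated, a change of 1.79 ± 0.30 (adjusted p = 0.000648). Of 21 defence proteins, 2 were called higher and none lower (9.52%, median 0.25): EFR, the receptor of bacterial elongation factor Tu (1.18 ± 0.30), and BIK1, a cytoplasmic kinase that acts behind such receptors (1.02 ± 0.24). BIK1 read 9.03, 9.31 and 9.03 at 1 d, against 7.84, 8.39 and 8.08 when cold acclimated, with no overlap. FER lost its call without cold acclimated replicate 1 (adjusted p = 0.0532). EFR lost its call without Rsch 1 d replicates 2 or 3 or cold acclimated replicates 1 or 3 (adjusted p between 0.0633 and 0.106). BIK1 lost its call without Rsch 1 d replicate 2 or cold acclimated replicate 1 (adjusted p between 0.0523 and 0.0633).

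Of 6 WRKY factors, 2 were called higher and none lower (median 0.62). WRKY22, known from flagellin signalling, had a change of 2.12 ± 0.54 (adjusted p = 0.0161), and WRKY42 one of 1.42 ± 0.42 (adjusted p = 0.0447). Both overlapped between groups. WRKY22 read 8.38, 8.45 and 7.39 at 1 d, against 5.28, 5.12 and 7.46 when cold acclimated, and WRKY42 read 6.77, 7.67 and 7.17 at 1 d, against 6.96, 5.75 and 4.65 when cold acclimated. WRKY22 lost its call without Rsch 1 d replicates 1 or 2 or cold acclimated replicates 1 or 2 (adjusted p between 0.0623 and 0.109). WRKY42 lost its call without Rsch 1 d replicates 2 or 3 or cold acclimated replicates 2 or 3 (adjusted p between 0.107 and 0.3). Both also lost the call when the replicate block was fitted to the compared arrays alone, and 1 pair went against the change in each, number 3 for WRKY22 (-0.07) and number 1 for WRKY42 (-0.18). Among 13 PUB and ATL ubiquitin ligases the calls went both ways, with PUB22, a brake on immune signalling, and PUB43 higher and PUB26 lower (median -0.01). PUB22 read 8.75, 8.23 and 8.02 log2 in the leaves at 1 d, against 4.97, 4.62 and 6.92 in cold acclimated leaves, a change of 2.84 ± 0.54 or 7.14-fold (adjusted p = 0.00183), while PUB26 read 6.37, 6.46 and 6.69 at 1 d, against 7.25, 7.51 and 7.51 when cold acclimated, a change of -0.92 ± 0.24 (adjusted p = 0.022). PUB22 kept its call without any single array but not among the arrays with the higher bioC level alone (adjusted p = 0.0827), whereas PUB43 lost it without Rsch 1 d replicates 2 or 3 or cold acclimated replicates 1 or 3 (adjusted p between 0.0677 and 0.0919). PUB26 lost its call without Rsch 1 d replicates 1 or 2 or cold acclimated replicates 2 or 3 (adjusted p between 0.0716 and 0.0813).

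Calcium-sensor genes moved in opposite directions. Of 7 calmodulin-like genes, CML38 was called higher and CML41 lower (median 0.17). CML38 read 11.04, 10.82 and 10.97 at 1 d, against 8.95, 8.80 and 9.69 when cold acclimated, a change of 1.79 ± 0.55 (adjusted p = 0.049), and CML41 read 6.98, 7.40 and 7.32 at 1 d, against 8.36, 9.39 and 8.57 when cold acclimated, a change of -1.54 ± 0.47 (adjusted p = 0.0482). Neither gene's groups overlapped, but both stood just inside the threshold. CML38 lost its call without Rsch 1 d replicates 1, 2 or 3 or cold acclimated replicates 1, 2 or 3 (adjusted p between 0.0526 and 0.162). CML41 lost its call without Rsch 1 d replicates 1, 2 or 3 or cold acclimated replicates 1, 2 or 3 (adjusted p between 0.0661 and 0.201). CML37 and CML42 had values of 1.42 and 1.10 and did not pass. Among 15 genes of the IQD family, whose proteins bind calmodulin, IQD22 was higher, with 9.30, 8.09 and 9.73 at 1 d, against 7.34, 6.60 and 6.52 when cold acclimated and a change of 2.22 ± 0.46 (adjusted p = 0.00405), and IQD24 was lower, with 6.12, 5.08 and 4.96 at 1 d, against 7.46, 7.55 and 7.32 when cold acclimated and a change of -2.06 ± 0.50 (adjusted p = 0.0128). IQD24 lost its call without Rsch 1 d replicates 2 or 3 (adjusted p between 0.0625 and 0.082), while IQD22 kept its call without any single array but not among the arrays with the higher bioC level alone (adjusted p = 0.0564). IDD16, an indeterminate-domain zinc finger factor, read 8.96, 8.33 and 8.99 at 1 d, against 6.59, 5.84 and 6.36 when cold acclimated, a change of 2.5 ± 0.33 (adjusted p = 4.90e-05), and was called under every alternative run.

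**Figure D3:**
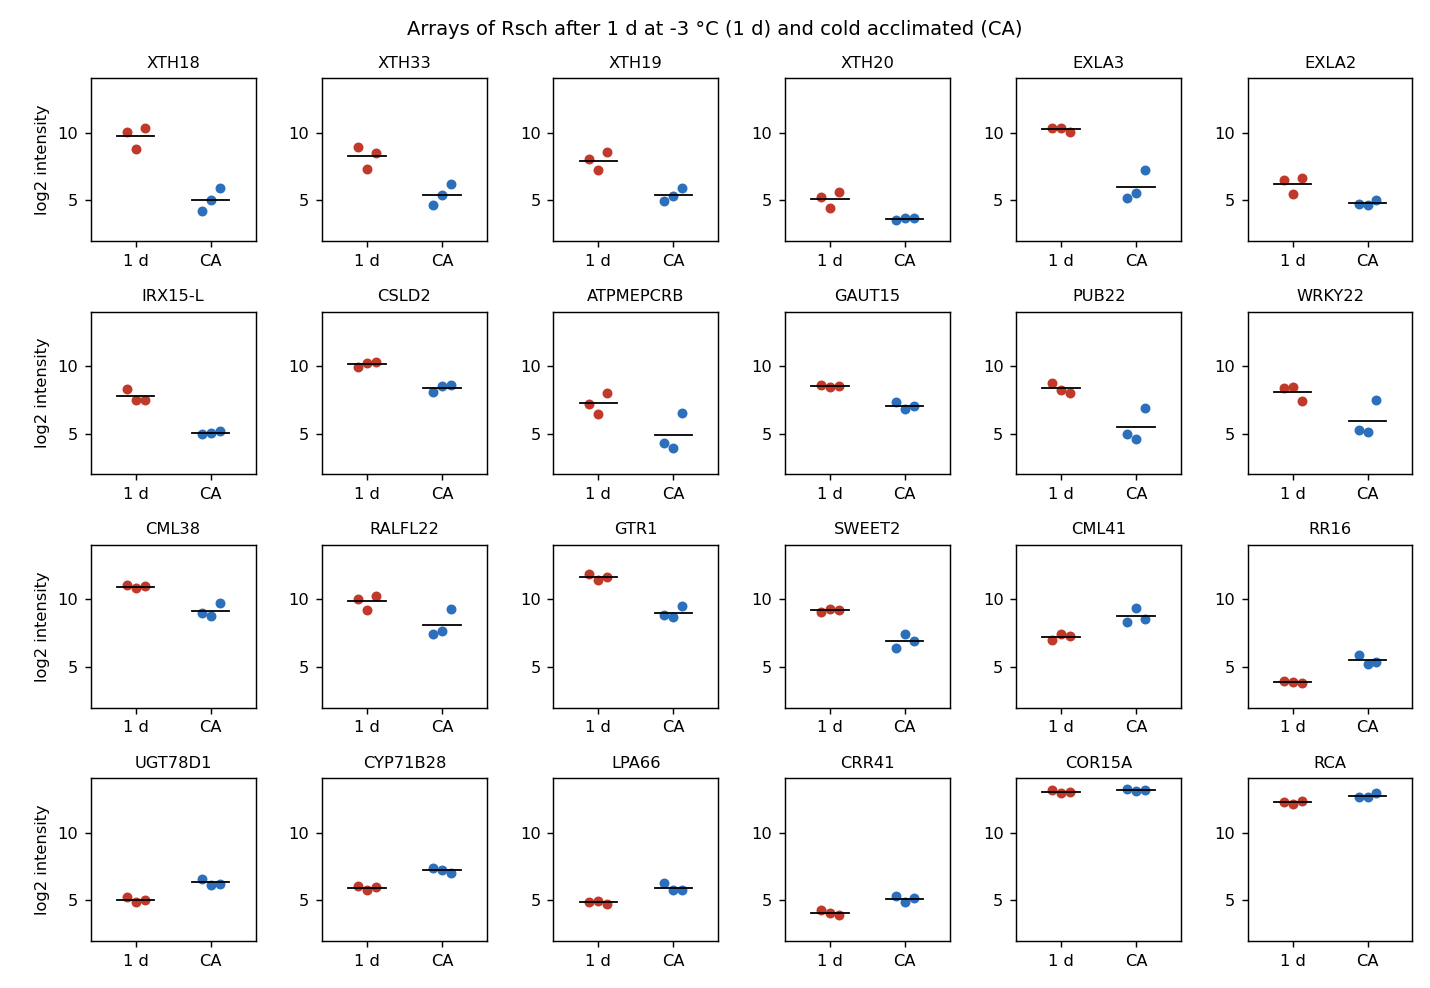
The y axis is the log2 intensity of 24 genes, each point is 1 array and black bars are means of the 3 arrays of Rsch leaves after 1 d at -3 °C (1 d, red) and of cold acclimated Rsch leaves (CA, blue). XTH18, EXLA3 and GTR1 separate widely, in WRKY22 and RALFL22 cold acclimated replicate 3 overlaps the arrays at 1 d, and COR15A lies at about the same level in both groups.

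Calls among transport genes were few. GTR1, a transporter of glucosinolates, the defence compounds of the cabbage family, read 11.84, 11.44 and 11.65 log2 in the leaves at 1 d, against 8.83, 8.68 and 9.48 in cold acclimated leaves, a change of 2.65 ± 0.44 or 6.26-fold (adjusted p = 0.00056). Its relative GTR2 read 9.80, 9.37 and 9.59 at 1 d, against 8.48, 8.89 and 8.68 when cold acclimated, a change of 0.90 ± 0.26 (adjusted p = 0.0327). They were the 2 called among 6 glucosinolate genes (median 0.15), and GTR2 lost its call without Rsch 1 d replicates 1 or 3 or cold acclimated replicates 1 or 3 (adjusted p between 0.0809 and 0.152). SWEET2, a sugar transporter of the vacuole membrane, was the only one called of 19 sugar transporters (5.26%, below the 6.18% of all probe sets, median 0.13), with 9.06, 9.30 and 9.17 at 1 d, against 6.43, 7.46 and 6.90 when cold acclimated and a change of 2.24 ± 0.42 (adjusted p = 0.00173). Genes of vesicle traffic followed in part: SEC15B, a subunit of the exocyst that tethers vesicles at the plasma membrane, read 8.99, 9.36 and 9.38 at 1 d, against 7.74, 7.83 and 8.15 when cold acclimated, a change of 1.34 ± 0.20 (adjusted p = 0.000204), and PRA1.B6, a prenylated Rab acceptor, changed by 1.11 ± 0.21 (adjusted p = 0.00183). PRA1.B6 lost its call among the arrays with the higher bioC level alone (adjusted p = 0.0794). Of 19 vacuolar sorting and exocyst genes, 2 were higher (SEC15B and VPS46.2, 0.45) and VPS9B was lower (-0.67), with a median of 0.04. VPS46.2 lost its call without Rsch 1 d replicates 1, 2 or 3 or cold acclimated replicates 1, 2 or 3 (adjusted p between 0.0744 and 0.197). VPS9B lost its call without Rsch 1 d replicates 1, 2 or 3 or cold acclimated replicates 1 or 3 (adjusted p between 0.062 and 0.257).

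On the lists of hormone and glycosyl transfer genes, calls were few. JRG21, a jasmonate-regulated gene, was the only one called of 7 jasmonate genes (median -0.20), with 6.82, 8.68 and 8.59 at 1 d, against 4.24, 6.57 and 6.70 when cold acclimated and a change of 2.19 ± 0.64 (adjusted p = 0.0414). It lost its call without Rsch 1 d replicates 2 or 3 or cold acclimated replicate 1 (adjusted p between 0.177 and 0.322). AT2G38240, a jasmonate-inactivating dioxygenase given only by code here, was not on the jasmonate list and rose by 5.01 ± 0.65. The jasmonate list thus does not cover all jasmonate genes on the array. ORA47, a transcription factor of jasmonate synthesis, had the lowest value of that list, -2.1 ± 0.93 (adjusted p = 0.221). RR16, a type-A response regulator that dampens cytokinin signalling, read 3.96, 3.90 and 3.82 log2 in the leaves at 1 d, against 5.90, 5.23 and 5.40 in cold acclimated leaves, a change of -1.62 ± 0.19 (adjusted p = 2.22e-05), and was called under every alternative run. It was the 1 call of 6 response regulators, whose median was 0.07. IAA29, an auxin-signal repressor, changed by -1.01 ± 0.23 (adjusted p = 0.00858) as the 1 call of 19 auxin genes (5.26%), and GID1C, a gibberellin receptor, had a change of -0.86 ± 0.22 (adjusted p = 0.0191). IAA29 lost its call without cold acclimated replicate 1 (adjusted p = 0.0793). GID1C lost its call without Rsch 1 d replicate 1 or cold acclimated replicate 2 (adjusted p between 0.112 and 0.116). Among 47 UGT glycosyltransferases, 2 were higher (UGT85A2, 2.1, and UGT71C5, 0.64) and 2 lower (UGT78D1 and UGT85A5, -0.79), with a median of 0.09. That is 8.51% of the list, near the share of all probe sets. UGT85A2 and UGT85A5 are neighbours on the chromosome and were called in opposite directions, UGT85A2 with 9.50, 9.40 and 10.56 at 1 d, against 7.31, 7.44 and 8.41 when cold acclimated and UGT85A5 with 6.36, 6.0 and 6.11 at 1 d, against 7.31, 6.55 and 6.98 when cold acclimated. UGT85A5 lost its call without Rsch 1 d replicates 1, 2 or 3 or cold acclimated replicates 1 or 3 (adjusted p between 0.05 and 0.248). UGT71C5 lost its call without Rsch 1 d replicate 3 (adjusted p = 0.0937). UGT85A2 lost its call among the arrays with the higher bioC level alone (adjusted p = 0.0685).

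Among the lists, the cytochrome P450 family CYP71B held the most genes called lower by count. By share it was similar to the organelle RNA editing, splicing and NDH assembly factors (21.1% against 21.4% called). Of 19 CYP71B genes, 4 were called lower and none higher, beside 2.99% of all probe sets called lower, with a median of -0.17. CYP71B28 read 6.05, 5.79 and 5.99 log2 in the leaves at 1 d, against 7.36, 7.24 and 7.05 in cold acclimated leaves, a change of -1.28 ± 0.24 (adjusted p = 0.00173). CYP71B24 read 6.46, 6.62 and 6.27 at 1 d, against 7.57, 7.55 and 7.65 when cold acclimated, a change of -1.14 ± 0.19 (adjusted p = 0.000711). CYP71B34 and its chromosomal neighbour CYP71B35 changed by -1.19 ± 0.33 and -0.94 ± 0.25, and the groups of these 4 genes did not overlap. CYP71B36 had the lowest value of the family, -1.41 ± 0.46, and did not pass (adjusted p = 0.0672). CYP71B34 lost its call without Rsch 1 d replicates 2 or 3 or cold acclimated replicates 1 or 3 (adjusted p between 0.0947 and 0.143). CYP71B35 lost its call without Rsch 1 d replicates 2 or 3 or cold acclimated replicates 1, 2 or 3 (adjusted p between 0.0559 and 0.126). UGT78D1, which adds rhamnose to flavonols, read 5.23, 4.88 and 5.02 at 1 d, against 6.59, 6.17 and 6.22 when cold acclimated, a change of -1.28 ± 0.28 (adjusted p = 0.00602), and was the 1 call of 9 anthocyanin and flavonol genes (median -0.56). DFR, the reductase that leads to anthocyanins, had -0.56 ± 0.68 and did not pass (adjusted p = 0.745).

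Photosynthesis genes lay on the lower side, and all but 1 did not pass the test. All 25 nuclear photosystem, antenna and NDH genes had values below 0, from -1.12 for LHCB4.2 to -0.10, with a median of -0.47, and 1 of them was called. That median was -0.39 after median centring and -0.37 without cold acclimated replicate 3. The called gene was LPA66, which edits a chloroplast transcript of photosystem II, with 4.86, 4.97 and 4.76 at 1 d, against 6.27, 5.76 and 5.73 when cold acclimated and a change of -1.05 ± 0.23 (adjusted p = 0.00587). LHCB4.2, an antenna protein of photosystem II, had 9.81, 9.0 and 9.53 at 1 d, against 10.66, 9.90 and 11.13 when cold acclimated and a change of -1.12 ± 0.63 (adjusted p = 0.367). With the replicate block over all arrays, 4 of the 25 were called lower. The 5 Calvin cycle and photorespiration genes ranged from -0.64 to -0.42 with none called, RCA (Rubisco activase) having 12.24, 12.14 and 12.34 at 1 d, against 12.64, 12.61 and 12.92 when cold acclimated. The 7 mesophyll markers, which include some of these genes, summed to 73.5 to 77.7 log2 per array at 1 d and 76.8 to 81.0 when cold acclimated, and the part of cell composition in these values was not tested. Of 69 chloroplast-encoded genes none was called, with a median of -0.05 and a range from -0.42 to 0.30. LPA66 lost its call without cold acclimated replicate 1 (adjusted p = 0.0514).

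Some factors that serve organelle gene expression were lower. Of 14 organelle RNA editing, splicing and NDH assembly factors, 3 were called lower and none higher, beside 2.99% of all probe sets called lower, with a median of -0.08. CRR41, needed to assemble the chloroplast NDH complex, read 4.26, 4.03 and 3.95 log2 in the leaves at 1 d, against 5.30, 4.84 and 5.20 in cold acclimated leaves, a change of -1.03 ± 0.15 (adjusted p = 0.00017). It was called under each of the 16 alternative runs that tested it. CRR21, an editing factor of an NDH transcript, changed by -1.01 ± 0.28, and MEF8S, a mitochondrial editing factor, by -0.52 ± 0.16. CRR42 had a lower value than these, -1.22 ± 0.45, and did not pass (adjusted p = 0.119). All 3 called genes were dim, with group means below 5.32 log2 (the 40th percentile of all values) in both groups. CRR21 lost its call without Rsch 1 d replicates 2 or 3 or cold acclimated replicate 1 (adjusted p between 0.121 and 0.234). MEF8S lost its call without Rsch 1 d replicates 2 or 3 or cold acclimated replicates 1, 2 or 3 (adjusted p between 0.0793 and 0.206). The mitochondrial cox1, a subunit of cytochrome c oxidase, was the only one called of 15 mitochondrion-encoded genes (6.67%, median 0.04), with 8.50, 8.08 and 8.88 at 1 d, against 7.52, 7.18 and 7.10 when cold acclimated and a change of 1.22 ± 0.27 (adjusted p = 0.0061). It lost its call without Rsch 1 d replicate 3 (adjusted p = 0.0567).

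The remaining genes with a symbol that changed had mixed roles. Among those called higher, MPC, which the annotation names after the C-terminal part of a poly(A)-binding protein, read 8.18, 7.90 and 8.27 log2 in the leaves at 1 d, against 6.68, 5.85 and 5.33 in cold acclimated leaves, a change of 2.16 ± 0.37 (adjusted p = 0.000697), and was called under every alternative run. HOS3-1 (1.45) belongs to the elongation of very long fatty acids, CCT2 (1.33) to phosphatidylcholine synthesis and ATCES1 (0.60) to ceramide breakdown. BPC1 (1.17) is a factor that binds GA-rich DNA, AZG1 (0.83) a purine transporter, PIA1 (0.67) a protein phosphatase and PGM (0.66) a phosphoglycerate mutase. The beta-glucosidases BGLU15 (1.65) and BGLU25 (0.90) were the 2 called of 22, both higher, and PRA1.B4 (1.43), TRM21 (0.83), CXE16 (0.54) and BIN4 (0.47) were also higher. TRM21 kept its call without any single array. HOS3-1 lost its call without Rsch 1 d replicate 3 (adjusted p = 0.0661). CCT2 and BIN4 lost their calls without Rsch 1 d replicates 1, 2 or 3 or cold acclimated replicates 2 or 3 (adjusted p between 0.0554 and 0.168). ATCES1, PIA1 and PGM lost their calls without Rsch 1 d replicates 1, 2 or 3 or cold acclimated replicates 1, 2 or 3 (adjusted p between 0.0515 and 0.197). BPC1 lost its call without Rsch 1 d replicate 3 or cold acclimated replicates 2 or 3 (adjusted p between 0.0648 and 0.107). AZG1 lost its call without Rsch 1 d replicates 2 or 3 or cold acclimated replicate 1 (adjusted p between 0.0646 and 0.111). BGLU15 lost its call without Rsch 1 d replicates 2 or 3 or cold acclimated replicates 1 or 3 (adjusted p between 0.0559 and 0.151). BGLU25 lost its call without Rsch 1 d replicate 2 or cold acclimated replicates 1 or 3 (adjusted p between 0.0701 and 0.155). PRA1.B4 lost its call without Rsch 1 d replicate 3 or cold acclimated replicates 1, 2 or 3 (adjusted p between 0.0533 and 0.143). CXE16 lost its call without Rsch 1 d replicate 3 or cold acclimated replicate 1 (adjusted p between 0.0611 and 0.0756).

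Among those called lower, UPB1, a bHLH factor known to repress peroxidases in roots, varied among the cold acclimated arrays, with 3.55, 3.65 and 3.46 at 1 d, against 5.61, 4.14 and 6.28 when cold acclimated, and had a change of -1.79 ± 0.39 (adjusted p = 0.00622). PSY1R (-0.64) is a receptor kinase for a sulfated peptide, CLE21 (-0.73) a signalling peptide and RTE1 (-0.51) a regulator of an ethylene receptor. GIS (-0.87) is a zinc finger factor of trichomes, HON4 (-0.78) a linker-histone-like protein, LCD (-0.74) an L-cysteine desulfhydrase, DIM1B (-0.62) an rRNA dimethylase and REV7 (-0.73) a part of a DNA repair polymerase. The iron regulators PYE (-0.74) and bHLH34 (-0.75) were the 2 called of 10 iron homeostasis genes, and ATG8F (-0.55) was the only one called of 10 autophagy genes. ALDH22A1 (-0.68) was the 1 call of 8 aldehyde dehydrogenases and Fes1C (-0.76) that of 16 heat shock proteins and co-chaperones, and ARLA1A (-0.80) and P1R1 (-0.53) were lower as well. UPB1 lost its call without cold acclimated replicate 3 (adjusted p = 0.0564). PSY1R, RTE1 and PYE lost their calls without Rsch 1 d replicates 2 or 3 or cold acclimated replicates 1 or 3 (adjusted p between 0.0522 and 0.211). CLE21 and REV7 lost their calls without Rsch 1 d replicates 1, 2 or 3 or cold acclimated replicates 1, 2 or 3 (adjusted p between 0.0544 and 0.219). GIS lost its call without Rsch 1 d replicates 2 or 3 or cold acclimated replicate 2 (adjusted p between 0.0888 and 0.122). HON4 lost its call without Rsch 1 d replicate 3 (adjusted p = 0.0941). LCD lost its call without Rsch 1 d replicate 3 or cold acclimated replicate 2 (adjusted p between 0.078 and 0.0963). DIM1B lost its call without Rsch 1 d replicate 2 or cold acclimated replicates 1 or 3 (adjusted p between 0.0621 and 0.0949). bHLH34 and ALDH22A1 lost their calls without Rsch 1 d replicates 2 or 3 or cold acclimated replicates 1 or 2 (adjusted p between 0.0847 and 0.138). ATG8F lost its call without Rsch 1 d replicate 3 or cold acclimated replicates 2 or 3 (adjusted p between 0.069 and 0.143). Fes1C and ARLA1A lost their calls without Rsch 1 d replicates 1, 2 or 3 or cold acclimated replicates 1 or 3 (adjusted p between 0.0608 and 0.168). P1R1 lost its call without Rsch 1 d replicates 1, 2 or 3 or cold acclimated replicates 1 or 2 (adjusted p between 0.0762 and 0.237).

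No gene on the list of cold-regulated, dehydrin and LEA genes passed the test. Of its 17 genes, none was called in either direction, with a median of 0.11. The list mixes bright and dim genes, with cold acclimated means from 2.52 to 13.12, so its median is not that of cold acclimation markers alone. COR15A, a chloroplast protein that protects membranes, read 13.17, 12.90 and 13.01 log2 in the leaves at 1 d, against 13.20, 13.04 and 13.13 in cold acclimated leaves, a change of -0.10 ± 0.10 (adjusted p = 0.688), and was among the brightest genes on all 6 arrays. The highest mean of any probe set at 1 d was 13.56, and how well a further rise of COR15A could be read near that level was not tested. SRC2 had the highest value of the list, 0.89 ± 0.31 (adjusted p = 0.0994), with 12.36, 12.55 and 12.54 at 1 d, against 11.01, 11.57 and 12.22 when cold acclimated. COR27, COR47 and COR15B had values of 0.88, 0.71 and 0.62. With the replicate block over all arrays, 2 of the 17 were called higher. Among 59 gene lists examined, 29 held a called member, 12 of them with higher calls only, 11 with lower calls only and 6 with both. The 840 genes on the lists included 32 called higher and 23 called lower. These counts are near the shares over all probe sets, 3.19% called higher and 2.99% called lower. Lists without a call included 14 glutathione transferases, 18 redox enzymes, 14 genes of the TCA cycle, 14 of ER stress and quality control, 16 bZIP factors and 4 clock genes.

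In the fit without the replicate number, few probe sets of Rsch passed the test between 1 d and the neighbouring times. Far more passed when that number was a block on the compared arrays alone, so low counts do not show that the times hardly differ. Arrays with the same replicate number deviated together, with correlations of 0.32, 0.50 and 0.59 between 1 d and 8 h. Between 3 d and 1 d the correlations were 0.52, 0.55 and 0.45. Against 8 h, 13 probe sets were called (0.0572%), 10 higher and 3 lower, while 1744 (7.67%) had an unadjusted p under 0.05. All of these comparisons use the same arrays at 1 d, and those against cold acclimated leaves share the cold acclimated arrays. The count moved with the treatment of replicates, to 20 with the replicate block over all arrays and 232 with that block on the compared arrays alone. Array weights gave 155, and the compared arrays alone without a block gave 0. It was 98 without Rsch 8 h replicate 3 and 5 without Rsch 1 d replicate 3 or without Rsch 8 h replicate 1. It was 7 without Rsch 8 h replicate 2 and 8 without Rsch 1 d replicate 2. Called genes that were also called against cold acclimated leaves were AT1G71950, AT5G04250, AT3G14890, AT1G25240 and AT5G24570, all higher at 1 d. AT3G14890 read 8.87, 8.95 and 8.44 at 1 d, against 7.33, 6.54 and 6.65 when cold acclimated, and had 7.43, 6.80 and 6.36 at 8 h. AT1G71950 read 12.16, 12.16 and 12.26 at 1 d, against 11.04, 10.82 and 11.02 when cold acclimated, and had 10.81, 11.29 and 11.26 at 8 h. In both genes the arrays at 8 h lay at the level of cold acclimated leaves, and all arrays at 1 d above them. The changes from 8 h to 1 d were 1.89 ± 0.29 (adjusted p = 0.00353) and 1.07 ± 0.17 (adjusted p = 0.00653). AT1G25240 lies 2 genes from IDD16 on its chromosome, with 1 gene between them, and changed by 1.96 ± 0.28 against 8 h. Against 8 h, AT1G71950 lost its call without Rsch 1 d replicate 3 or Rsch 8 h replicate 1 (adjusted p between 0.0559 and 0.117). AT5G04250 lost it without Rsch 1 d replicate 2 or 3 or Rsch 8 h replicate 1 or 2 (adjusted p between 0.149 and 0.28). AT5G24570 lost it without Rsch 1 d replicate 1 or 3 or Rsch 8 h replicate 1 or 2 (adjusted p between 0.145 and 0.324). Against cold acclimated leaves, AT5G24570 lost its call without Rsch 1 d replicates 1 or 3 or cold acclimated replicates 2 or 3 (adjusted p between 0.105 and 0.152).

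Against the leaves at 1 d, those at 3 d had 1 called probe set (0.0044%), and 1974 (8.68%) had an unadjusted p under 0.05. It was AT1G57850, chosen for this call, which read 4.49, 4.88 and 4.15 at 3 d, against 6.26, 5.93 and 5.71 at 1 d, a change of -1.46 ± 0.21 (adjusted p = 0.0085). Its level was 4.06, 4.12 and 4.27 in cold acclimated leaves and 6.44, 6.60 and 6.05 at 8 h, so it was high at 8 h and 1 d and low before and after. The replicate block over all arrays gave 14 calls, that block on the compared arrays alone 1175, and array weights 182. The compared arrays alone without a block gave 38. The 1 call was lost without Rsch 1 d replicate 1 or 2 or Rsch 3 d replicate 1 or 3. A total of 6 were called without Rsch 3 d replicate 2 and 2 without Rsch 1 d replicate 3. Against cold acclimated leaves, 297 probe sets were called at 8 h (1.31%; 0.906% higher and 0.4% lower) and 2158 at 3 d (9.49%; 4.1% higher and 5.39% lower). The wall and signal genes had different courses in their values. The changes against cold acclimated leaves were 3.69 at 8 h, 4.68 at 1 d and 3.29 at 3 d for XTH18, and 1.07, 2.84 and 4.60 for XTH33. For 4CL8 they were 3.49, 4.15 and 1.85, and for GTR1 2.64, 2.65 and 0.99. CML41 had -0.95, -1.54 and 0.48, and RR16 had -1.14, -1.62 and -1.55. Between 1 d and 3 d, none of these 6 genes passed the test in the fit without the replicate number (adjusted p of 0.13 to 0.98).

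**Figure D4:**
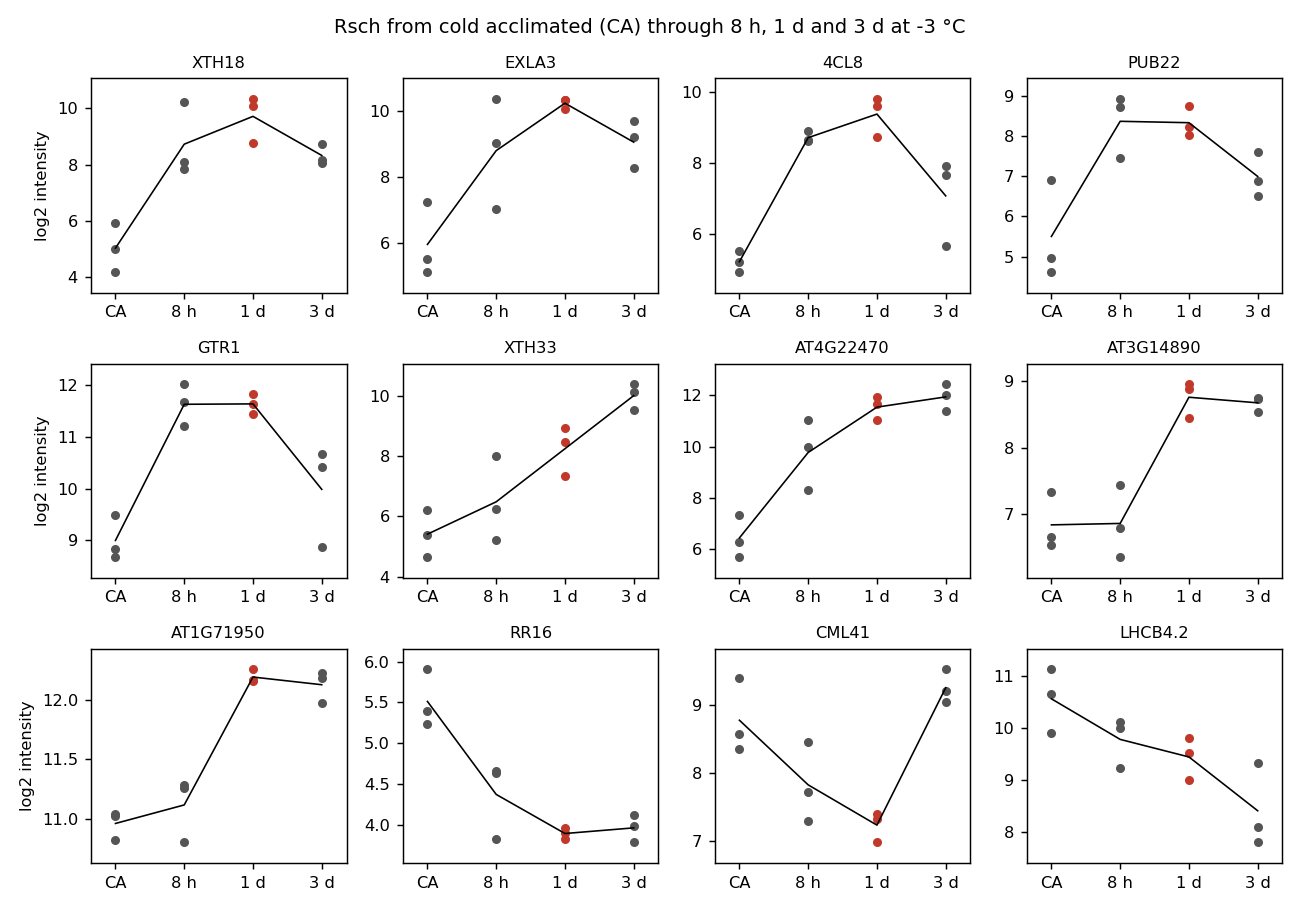
The y axis of each panel is the log2 intensity of 1 gene in Rsch leaves, on a scale of its own, and the x axis runs from cold acclimated (CA) through 8 h, 1 d (red points) and 3 d at -3 °C; points are arrays, 3 per time, and lines join the means. GTR1 and 4CL8 are high at 8 h and 1 d, XTH33 has its highest values at 3 d, and AT3G14890 and AT1G71950 separate between 8 h and 1 d.

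Many probe sets called in Rsch were also called in Col and Te, whose changes come from arrays of their own. The spread of each probe set was estimated from all 34 arrays together, so the tests of the 3 accessions are not independent. Col had 1861 calls (8.18%; 3.71% higher and 4.48% lower) and Te 793 (3.49%; 2.11% higher and 1.37% lower). Of the 725 probe sets called higher in Rsch, 488 were also called higher in Col, which is 67.3% of the Rsch calls and 57.9% of the 843 Col calls. In Te 343 of them were called higher, 47.3% of the Rsch calls and 71.3% of the 481 Te calls. Of the 681 called lower in Rsch, 424 were called lower in Col (62.3% of the Rsch and 41.7% of the 1018 Col calls) and 189 in Te (27.8% of the Rsch and 60.6% of the 312 Te calls). No probe set was called in opposite directions. The log2 changes of all probe sets correlated with Pearson's r of 0.83 between Rsch and Col and 0.82 between Rsch and Te, as a description over probe sets that are not independent.

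In the test of the difference between accessions, 6 probe sets were called for Rsch and Col (0.0264%) and none for Rsch and Te (0.0%), with 468 (2.06%) and 360 (1.58%) at an unadjusted p under 0.05 in limma. Rsch and Te had 0 calls in each of the other settings except the arrays with the higher bioC level alone, which gave 1. Of the 6 probe sets, 5 had 1 gene. AT5G28430 read 6.95, 6.77 and 5.32 at 1 d, against 6.69, 7.96 and 7.13 when cold acclimated in Rsch. In Col it read 7.18, 7.49 and 6.87 at 1 d, against 3.20, 3.41 and 3.08 when cold acclimated. The difference of the responses was -4.87 ± 0.72 (adjusted p = 0.00539), and the accessions were apart when cold acclimated rather than at 1 d. Its probe set carries the suffix _s_at, which marks probes shared by several transcripts. AT2G34910 had 3.84, 3.85 and 4.00 at 1 d, against 3.76, 3.88 and 3.66 when cold acclimated in Rsch, and 4.81, 5.06 and 5.41 at 1 d against 3.65, 3.73 and 3.63 when cold acclimated in Col, a difference of -1.30 ± 0.19 (adjusted p = 0.00539). AT1G28375 gave -0.81 ± 0.15 (adjusted p = 0.0472), AT3G47250 1.02 ± 0.17 (adjusted p = 0.0148) and AT5G55790 1.44 ± 0.26 (adjusted p = 0.0472). In Rsch these 4 genes lay between 3.04 and 4.09 log2 on all 6 arrays and none was called, while each was called in Col. At this low end of the scale, with no detection call and probes that follow Columbia-0, a fall in Rsch could not be read. AT3G47250 and AT5G55790 fell in Col, so their differences restate the change in Col. AT2G34910 and AT1G28375 rose in Col, from means of 3.67 and 3.71 to 5.09 and 4.66. Whether Rsch lacked that rise or its transcripts were not read by the probes was not tested. AT3G47250 stood at 8.61 to 8.90 at 1 d and 9.53 to 9.84 when cold acclimated in Col. The calls of AT5G28430 and AT2G34910 held without any single array of the 12, but ended when the replicate block was fitted to the compared arrays alone (adjusted p of 0.0604 and 0.275), as they did with the compared arrays alone or the higher-bioC arrays alone. AT3G47250 lost its call without Rsch 1 d replicate 1 or 3, Rsch cold acclimated replicate 1 or 2, Col 1 d replicate 1 or Col cold acclimated replicate 1 (adjusted p between 0.0565 and 0.0755). AT1G28375 lost it with the replicate block over all arrays (adjusted p = 0.0589) and without any 1 of the 12 arrays (adjusted p between 0.0565 and 0.267). AT5G55790 lost it without any 1 except Col 1 d replicate 1 or Col cold acclimated replicate 2 (adjusted p between 0.0826 and 0.214). Without dim probe sets, those whose highest group mean lay below 5.32 log2, 3 of the 6 calls were made, and 0 when only the arrays compared entered the test.

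**Figure D5:**
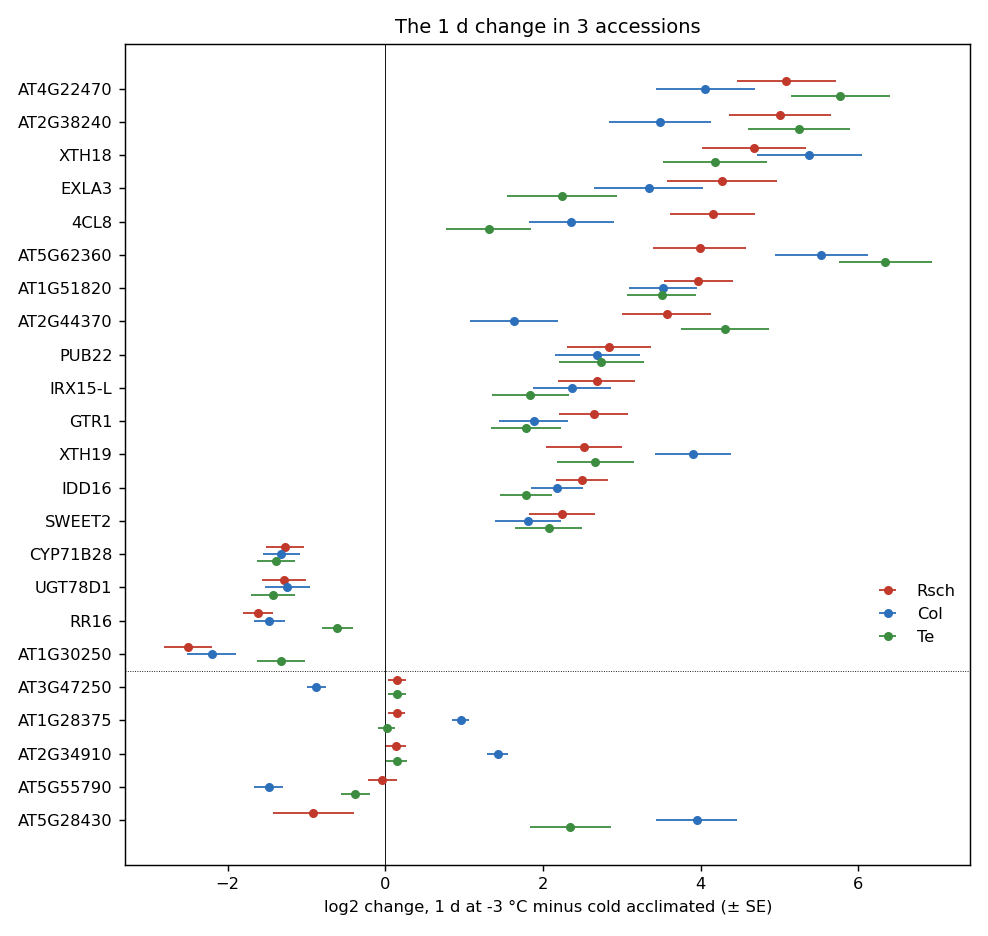
The x axis is the log2 change after 1 d at -3 °C against cold acclimated leaves with its standard error, for Rsch (red), Col (blue) and Te (green), 3 arrays per group. Above the dotted line are 18 genes that changed in Rsch, and the 5 genes below it were called in the test of Rsch against Col, with Rsch values between -0.91 and 0.15, of which all but AT5G28430 lay at the low end of the scale in Rsch.

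Genes called in Rsch whose values looked apart from the other accessions did not pass the test for a difference. 4CL8 changed by 4.15 ± 0.54 in Rsch, 2.36 ± 0.54 in Col and 1.31 ± 0.54 in Te, and the difference of Rsch from Te was 2.84 ± 0.76 and did not pass. EXLA3 changed by 4.27 ± 0.70 in Rsch, 3.34 ± 0.70 in Col and 2.24 ± 0.70 in Te. AT5G62360 changed by 3.99 ± 0.59 in Rsch, 5.53 ± 0.59 in Col and 6.34 ± 0.59 in Te. CML41 changed by -1.54 ± 0.47 in Rsch, -1.64 ± 0.47 in Col and 0.37 ± 0.47 in Te. The adjusted p of these differences lay above 0.99, and the standard errors of 0.66 to 0.98 log2 on them show what 3 arrays per group could resolve.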

How the data were processed

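Transcript levels of Rsch leaves were taken from the authors' deposited table of log2 intensity values for ATH1 arrays, made with RMA per the submitters' processing notes; the RMA version is not given in the sources used here, and the log2 scale was read from the values. The values carry no detection call, so dim probe sets have no known background, and the number of arrays limits the precision. Of 22810 probe sets, 64 controls were left out and 22746 tested. The platform annotation, updated through RefSeq, gave 13513 probe sets 1 gene, 503 several and 8730 none here.

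All 34 arrays in 12 groups (22 residual degrees of freedom) entered limma 3.58.1 in R 4.3.3, with contrasts for each comparison, moderated tests and Benjamini-Hochberg adjustment over all probe sets. A probe set was called at an adjusted p under 0.05. Errors are standard errors of the log2 change, with 3 arrays per group. The fit was tested on simulated data with independent noise on each array, which did not cover deviations shared by arrays of one replicate number. Arrays of one replicate number deviated together (correlations of 0.47, 0.50 and 0.39 between 1 d and cold acclimated arrays), so the numbers were taken to pair the arrays. The main fit had no term for the replicate number, so errors, adjusted p and calls ignore this pairing unless a setting is named. Runs with 1 array left out had no such term either. Counts with the replicate number as a block, over all arrays or the compared arrays alone, are given beside main counts. The title of cold acclimated replicate 3 was followed, although its source label reads replicate 2.

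Named genes were the 14 highest and 14 lowest called changes without overlap, up to 4 called members of each list, called genes of the other comparisons, COR15A, and, added after the values had been seen, every called gene with a symbol and the 1 gene called between 3 d and 1 d. Members and lists were chosen with earlier results of these data known, and the lists were formed around the symbols annotated here. CBF1, CBF2 and CBF3 have no probe set named here and were not analysed. Alternatives were no dim probe sets, quantile normalization, median centring, no _s_at and _x_at probe sets, array weights, the replicate block, the compared arrays alone, trend with robust moderation, the bioC control level as a block or a restriction, and each array left out.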

Additional observations from a re-analysis of the deposited data

Results flagged for a closer look

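For 5 genes the test of the difference between the responses of Rsch and Col to 1 d at -3 °C, as the change in Rsch minus the change in Col, passed the threshold. The differences were -4.87 log2 for AT5G28430, -1.30 for AT2G34910, -0.81 for AT1G28375, 1.02 for AT3G47250 and 1.44 for AT5G55790. Rsch had no call for any of the 5 at 1 d, and Col had one for each. The last 4 of these genes lay between 3.04 and 4.09 log2 on every Rsch array of both groups, where a fall could not be read. AT3G47250 and AT5G55790 fell in Col, so their values restate the change in Col and do not show a different response in Rsch. AT2G34910 and AT1G28375 rose in Col from a similarly low level. Whether Rsch lacked that rise or its transcripts were not read by the probes was not tested. AT1G28375 did not pass with the replicate block over all arrays (adjusted p = 0.0589).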

How the results depend on the processing

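There were 17 alternatives. Of the 115 named genes called at 1 d, 41 were called under every alternative that tested them and 74 lost the call under at least 1, while none reversed. Among the 41, CRR41 was tested in 16 of the alternatives. All 115 were called with the replicate block, 6 (WRKY22, WRKY42, TBL18, P1R1, GIS and AT1G24140) lost the call with that block and the compared arrays alone, and 65 were called among the arrays with the higher bioC level. Of 1406 probe sets called against cold acclimated leaves, array weights gave 2644, the replicate block 2269, that block with the compared arrays alone 3451, and the higher-bioC arrays 815, with 670 to 1071 when 1 array was left out. Of 13 against 8 h, these settings gave 155, 20, 232 and 4, the compared arrays alone gave 0, the bioC level as a block 24, and leaving out 1 array 5 to 98. Of 1 between 3 d and 1 d, array weights gave 182, the replicate block 14, that block with the compared arrays alone 1175, the compared arrays alone 38, the bioC level as a block 5, quantile normalization 3, the higher-bioC arrays 0, and leaving out 1 array 0 to 6. Of 6 called in the test against Col, leaving out dim probe sets or quantile normalization gave 3, leaving out _s_at and _x_at probe sets 2, the replicate block with the compared arrays alone 1 (none of the 6), the compared arrays alone or the higher-bioC arrays 0, and leaving out 1 array 2 to 6. Against Te the count of 0 became 1 with the higher-bioC arrays. Values near 0 turned for AT5G55790 (0.048 with median centring, and -0.076 to 0.029 when 1 array was left out) and for M10, a LEA gene (0.042 with median centring, and -0.17 to 0.045 when 1 array was left out), both -0.04 as reported. Median centring moved the median of all probe sets to 0.08. The cause of these shifts was not tested, except that smaller sets of arrays hold fewer replicates. Dim probe sets limit what can be read for genes such as XTH20, CRR41 and 4 of the genes called in the test against Col.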

Other observations

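Chromosomal neighbours were present among the named genes in both directions. XTH18 and XTH19 are adjacent and had changes of 4.68 and 2.52 log2, CYP71B35 and CYP71B34 are adjacent and had -0.94 and -1.19, and AT1G30260 and AT1G30250 had -1.91 and -2.51. UGT85A2 and UGT85A5 are adjacent with 2.1 and -0.79, and HCT and LPA66, with 1 gene between them, had 0.81 and -1.05. Probe sets of related neighbours may share signal, which was not tested.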
